A study of Homo sapiens with 6 samples.

Results

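The genes examined here were the metalloproteinases of the MMP, ADAM and ADAMTS families and the TIMP genes, whose products inhibit them, in COV434 cells with and without BRG1. Membership was set by gene symbol, as every symbol made of MMP, ADAM, ADAMTS or TIMP and a number. For MMP a final letter was allowed, as in MMP23B. The families themselves, and the lists read beside them, were chosen with earlier results of these data known. The rule found 66 of the 19899 genes in the table, namely 23 MMP, 20 ADAM, 19 ADAMTS and 4 TIMP genes. Genes with related names but no such symbol, such as the ADAMTSL genes, were handled separately.

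COV434, an established line of ovarian origin, is used by the study as a model of SCCOHT, the hypercalcemic small cell cancer of the ovary, which has lost BRG1. BRG1 is encoded by SMARCA4 and supplies the ATP-driven motor of the SWI/SNF complex, which moves nucleosomes. The 3 Control samples received the empty vector pCDNA3-neo and the 3 BRG1 samples received PBJ5-BRG1, and all 6 also received pBABE-puro and puromycin at 2 to 3 µg/ml from 24 hours after transfection, for 3 days. Each sample is therefore a selected, transiently transfected population of 1 cell line, with BRG1 expressed from a plasmid, and expression was read by RNA-seq of poly(A) RNA.

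Active metalloproteinases of these families cut proteins with the help of a zinc ion in the active site, and not every ADAM gene encodes an active protease. MMPs break down collagens and other proteins of the extracellular matrix. ADAMs are mostly membrane proteins, some of which release growth factors and receptors from the cell surface. ADAMTS proteins are secreted and cut proteoglycans, procollagens and von Willebrand factor. TIMPs bind the active site of MMPs and, with different preferences, of ADAM and ADAMTS proteases. TIMP3 is the member that binds to the matrix and inhibits the widest range of these enzymes.

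Samples held between 29699759 and 63613736 estimated counts, with BRG1 sample 3 the shallowest. Levels are given as CPM, which are counts scaled to a common library size with TMM factors, or as CPM per kilobase of exon where genes are compared with each other. SMARCA4 rose with BRG1, plasmid transcripts included, from 34.0 ± 2.59 to 1915 ± 341 CPM (SD, n = 3 each). On the first principal component of the 500 most variable genes, BRG1 sample 3 lay at 41.8 and BRG1 samples 1 and 2 at 74.1 and 63, while the Control samples lay between -63.3 and -56.9. Of markers of cell types, 2 of 3 endothelial (VWF and CDH5, not PECAM1), 2 of 4 epithelial (KRT8 and KRT18, not CDH1 or EPCAM), 1 of 5 fibroblast (PDGFRA, with COL1A1, COL1A2, DCN and LUM not called), 1 of 5 immune (LYZ) and 1 of 6 granulosa markers (CYP19A1) were called higher, and 0 lower. Among all genes tested, 9.62% were called higher and 1.02% lower. CDH5 and LYZ held at most 3 counts in each Control sample and had enough counts for testing only through their BRG1 samples. EPCAM, CD3E and the granulosa markers FOXL2 and FSHR held at most 3 counts in every sample. In bulk RNA, more cells of a type and more RNA per cell cannot be told apart.

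A gene was called when the quasi-likelihood test of edgeR gave a Benjamini-Hochberg adjusted p under 0.05 over the 15061 genes tested. Of the 66 genes, 54 were tested, and 15 were called higher and 0 lower in BRG1 samples. Among all genes tested, 9.62% were called higher and 1.02% lower. Over all 66 genes the share called higher was 22.7%, beside 1449 of the 19899 genes of the whole table. Of the genes in the table with any count, 8.01% were called higher. All BRG1 samples lay above all Control samples in 20 of the 66 genes and below them in 5. In the whole table this held for 2757 and 1753 of the 19899 genes, and among genes tested for 16.3% and 11.3%. A lack of overlap between groups of this size was thus common. By an unadjusted p below 0.05, 20 of the genes were higher and 2 lower, beside 2242 and 919 of the 15061 genes tested, and DESeq2 called 17 higher and 0 lower, beside 11% and 1.84% of all genes it tested. With the replicate number as a block, edgeR called 20 higher and 2 lower, beside 13.7% and 5.84% of all genes tested. The 12 genes not tested averaged under 5 counts, and none exceeded 9 counts in any sample. MMP13, MMP27 and ADAM30 had 0 counts throughout, which allows up to 3 counts per library.

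**Figure D1:**
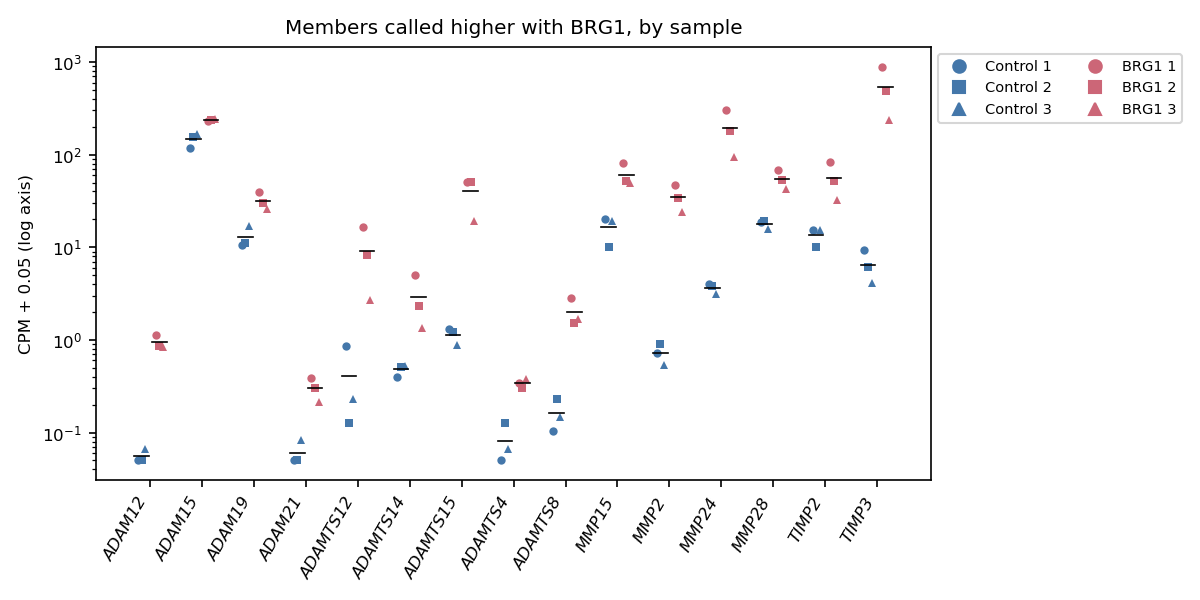
Level of the 15 genes called higher, in CPM plus 0.05 on a log axis, with 1 point per sample and a bar at each group mean (n = 3). The BRG1 points lie above the Control points for every gene, and BRG1 sample 3 (red triangle) is the lowest of its group in 12 of the 15. The genes were selected by the test on the same data, so the separation is no further support.

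All 15 called genes also passed in DESeq2, in limma-voom and in edgeR with the replicate block, while DESeq2 with the block did not call ADAM21 and ADAMTS4. BRG1 sample 1 was the highest BRG1 sample for 13 of them and BRG1 sample 3 the lowest for 12. Leaving out each sample in turn, 9 of the 15 remained called throughout, and between 10 and 17 of the 66 genes were called higher. ADAM12, ADAM21 and ADAMTS4, with Control at or under 3 counts, reached the mean of 5 counts needed for testing only through their BRG1 counts. Without this filter edgeR called 14 genes higher, and ADAMTS4 was no longer among them (adjusted p = 0.0577).

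The printed promoter sequences cover the 200 bases before the start of TIMP3 and MMP24, the 2 genes with the highest level per kilobase in BRG1 samples. They also cover ADAMTS12, MMP7 and MMP10, which hold a match to TGANTCA. This pattern leaves the middle base free and served as a loose form of the AP-1 motif. A match to it need not be an AP-1 site. AP-1 is the factor of the FOS and JUN families that the study links to BRG1, and MMP7 is one of the BRG1 target genes it names. Capitals mark the match, and TGANTCA reads the same on both strands. The sequences are from RefSeq, GRCh38.p14, written 5′ to 3′ on the strand of the gene: TIMP3 at chr22:32801505-32801704 (plus strand), MMP24 at chr20:35226490-35226689 (plus strand), ADAMTS12 at chr5:33891991-33892190 (minus strand), MMP7 at chr11:102530748-102530947 (minus strand) and MMP10 at chr11:102780629-102780828 (minus strand).
TIMP3: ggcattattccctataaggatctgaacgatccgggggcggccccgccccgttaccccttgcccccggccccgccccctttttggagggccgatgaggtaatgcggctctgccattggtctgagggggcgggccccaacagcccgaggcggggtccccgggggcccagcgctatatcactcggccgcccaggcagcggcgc
MMP24: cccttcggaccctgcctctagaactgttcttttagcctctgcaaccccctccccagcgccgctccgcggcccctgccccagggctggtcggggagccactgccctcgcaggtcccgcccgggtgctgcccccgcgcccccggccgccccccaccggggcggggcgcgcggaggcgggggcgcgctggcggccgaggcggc
ADAMTS12: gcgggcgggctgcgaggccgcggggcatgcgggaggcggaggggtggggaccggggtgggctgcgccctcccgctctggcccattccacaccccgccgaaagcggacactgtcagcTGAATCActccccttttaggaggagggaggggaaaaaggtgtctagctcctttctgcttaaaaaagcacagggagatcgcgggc
MMP7: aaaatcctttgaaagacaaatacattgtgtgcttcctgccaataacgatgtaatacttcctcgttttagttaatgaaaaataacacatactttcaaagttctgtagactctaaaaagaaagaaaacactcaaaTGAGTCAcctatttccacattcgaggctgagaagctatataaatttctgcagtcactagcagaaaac
MMP10: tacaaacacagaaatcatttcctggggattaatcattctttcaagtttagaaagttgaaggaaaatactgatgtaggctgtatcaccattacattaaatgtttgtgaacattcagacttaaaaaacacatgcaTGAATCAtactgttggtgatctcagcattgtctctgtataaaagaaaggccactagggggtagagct

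RefSeq windows from 250 bases before to 50 after the start were found for 39 of the 66 genes, 40 windows in all. The loose pattern TGANTCA was present in 4 of the 40 (10.0%), beside 7.71% of all 35116 windows. It was in 5.78% of the windows of genes in the table and 9.2% of the windows of genes called higher. These are shares of the pattern and not of AP-1 sites. The match was TGAGTCA in MMP7 and TGAATCA in MMP10, in both at bases -67 to -61 from the start, TGAATCA at -84 to -78 in ADAMTS12, and TGAATCA at -112 to -106 in MMP20. Of the 9 called genes with a window, only ADAMTS12 held a match. The median GC content was 75.3% for windows of called genes, 70.7% for those of tested genes not called and 58.7% for all windows. The TIMP3 and MMP24 windows held no match and had 72.7% and 80.0% GC.

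The inhibitors were examined first. TIMP3 and TIMP2 rose with BRG1, TIMP1 did not pass the test and TIMP4 had at most 1 count in any sample. TIMP3 is found on chromosome 22 (32801705 to 32863041, plus strand; GRCh38, GENCODE release 44, as for all genes here). Its level was 9.24, 6.03 and 4.06 CPM in Control samples 1 to 3 and 889, 480.3 and 238 CPM in BRG1 samples 1 to 3. The groups were far apart, although the level in BRG1 sample 3 was well below that in BRG1 sample 1. The log2 fold change was 6.39 (standard error, SE, 0.58; adjusted p = 3.8e-04), and within replicate numbers the fold was 96.2, 79.7 and 58.7. Per kilobase of exon TIMP3 moved from rank 16 of the 66 genes in Control to rank 1 in BRG1 samples. TIMP3 lies within the span of the neuronal gene SYN3, on the opposite strand, which was at 0.0269, 0.0772 and 0 CPM in Control and at 2.17, 2.35 and 2.59 CPM in BRG1 samples. SYN3 thus rose as well, with a BRG1 mean 34.4-fold the level of 3 counts per Control library. TIMP3 shared 0% of its exonic bases with another gene.

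TIMP2, which also takes part in activating MMP2 at the cell surface, lies on chromosome 17 from 78852977 to 78925387. It was at 15.4, 10.0 and 15.4 CPM in Control and at 83.5, 51.3 and 32.5 CPM in BRG1 samples. Every BRG1 sample was above every Control sample, with a log2 fold change of 2.03 (SE 0.35, adjusted p = 0.0073). TIMP1, the inducible inhibitor on the X chromosome, was at 0.806, 0.850 and 0.657 CPM in Control and at 1.05, 0.953 and 0.983 CPM in BRG1 samples. These groups did not overlap either, but the log2 fold change of 0.37 had a 95% interval of -0.37 to 1.11 (adjusted p = 0.592).

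Among the MMPs, 4 of 23 were called higher and 0 lower (6 and 0 by an unadjusted p below 0.05, and 4 and 0 in DESeq2). Of the 23 genes, 17 were tested. The shares of all genes tested were 9.62% higher and 1.02% lower. The 4 called genes were the gelatinase MMP2, the membrane-type enzymes MMP15 and MMP24, and MMP28, also called epilysin. MMP2 digests denatured collagen and basement membrane collagen, and lies on chromosome 16 from 55389700 to 55506691. Its level was 0.671, 0.850 and 0.493 CPM in Control and 47.3, 34.0 and 23.7 CPM in BRG1 samples. The groups were widely separated, with a log2 fold change of 5.72 (SE 0.35, adjusted p = 9.1e-05). The other gelatinase, MMP9, stayed low, at 0.188, 0.0772 and 0.0493 CPM in Control and 0.216, 0.198 and 0.0656 CPM in BRG1 samples. The MMP9 groups overlapped, and its log2 fold change of 0.73 had a 95% interval of -0.89 to 2.35 (adjusted p = 0.637).

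MMP24, a membrane-type MMP best known from the nervous system, lies on chromosome 20 from 35226690 to 35276998. It was at 3.97, 3.76 and 3.05 CPM in Control and at 303, 179.6 and 93.1 CPM in BRG1 samples. Control samples were close together, while BRG1 sample 1 was more than 3 times as high as BRG1 sample 3. The log2 fold change was 5.74 (SE 0.45, adjusted p = 2.1e-04). The libraries did not keep strand, and 22.1% of the exonic bases of MMP24 are shared with other genes. Its antisense gene MMP24-AS1 averaged 45.2 ± 4.11 CPM without and 54.9 ± 8.93 CPM with BRG1 (SD, n = 3 each; log2 fold change 0.28, adjusted p = 0.35).

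MMP15, another membrane-type enzyme, lies on chromosome 16 from 58025754 to 58046901. It was at 20.2, 9.94 and 19.4 CPM in Control and at 80.5, 51.7 and 49.1 CPM in BRG1 samples. All BRG1 samples were higher, with a log2 fold change of 1.87 (SE 0.31, adjusted p = 0.00615). MMP28, a secreted enzyme of epithelia, lies on chromosome 17 from 35756249 to 35795707. It was at 18.5, 19.2 and 15.7 CPM in Control and at 67.4, 53.5 and 42.4 CPM in BRG1 samples, without overlap. Its log2 fold change was 1.61 (SE 0.19, adjusted p = 0.00129). The other 4 membrane-type genes were not called, and MMP14, the main activator of MMP2, was at 0.591, 0.566 and 0.345 CPM in Control and 0.647, 0.324 and 0.918 CPM in BRG1 samples. The MMP14 groups overlapped (log2 fold change 0.32, 95% interval -0.83 to 1.47, adjusted p = 0.79).

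Collagenases and stromelysins, which cut fibrillar collagen and a wide range of matrix proteins, included no called gene, and MMP10 had the highest level per kilobase among them in both groups. The collagenase MMP1 was at 0.591, 0.618 and 0.558 CPM in Control and at 0.416, 0.431 and 0.557 CPM in BRG1 samples, lower without overlap (log2 fold change -0.34, 95% interval -1.19 to 0.51, adjusted p = 0.679). The stromelysin MMP3 was at 0.376, 0.309 and 0.197 CPM in Control and at 0.154, 0.216 and 0.131 CPM in BRG1 samples (-0.76, interval -1.90 to 0.37), and MMP10 was at 7.71, 6.69 and 4.60 and at 4.45, 5.19 and 4.36 CPM (-0.44, interval -1.02 to 0.15). The groups of both stromelysins overlapped. Most of these genes belong to a cluster of 9 MMP genes on chromosome 11, from MMP7 (102520508 to 102530750) to MMP13 (102942995 to 102955732), with no other coding gene between neighbours. In this cluster 5 genes were tested and 0 were called without the block (DESeq2 called 0 as well, and 2 were higher with an unadjusted p below 0.05). With 9.62% of all genes tested called higher, 0 calls among 5 genes do not set the cluster apart.

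MMP7, or matrilysin, a small secreted enzyme of epithelia, was at 0.349, 0.206 and 0.0164 CPM in Control and at 1.76, 0.989 and 0.164 CPM in BRG1 samples. BRG1 sample 3 lay below Control samples 1 and 2, so the groups overlapped, but each BRG1 sample was above the Control sample of the same number. The log2 fold change was 2.45 (SE 1.01), with an adjusted p of 0.212 without the block and 0.00937 with it. MMP12, the macrophage elastase, was at 0.0269, 0.103 and 0.0164 CPM in Control and at 0.308, 0.216 and 0.131 CPM in BRG1 samples. Its groups did not overlap, but its adjusted p was 0.122, or 0.0858 with the block (log2 fold change 2.24).

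**Figure D2:**
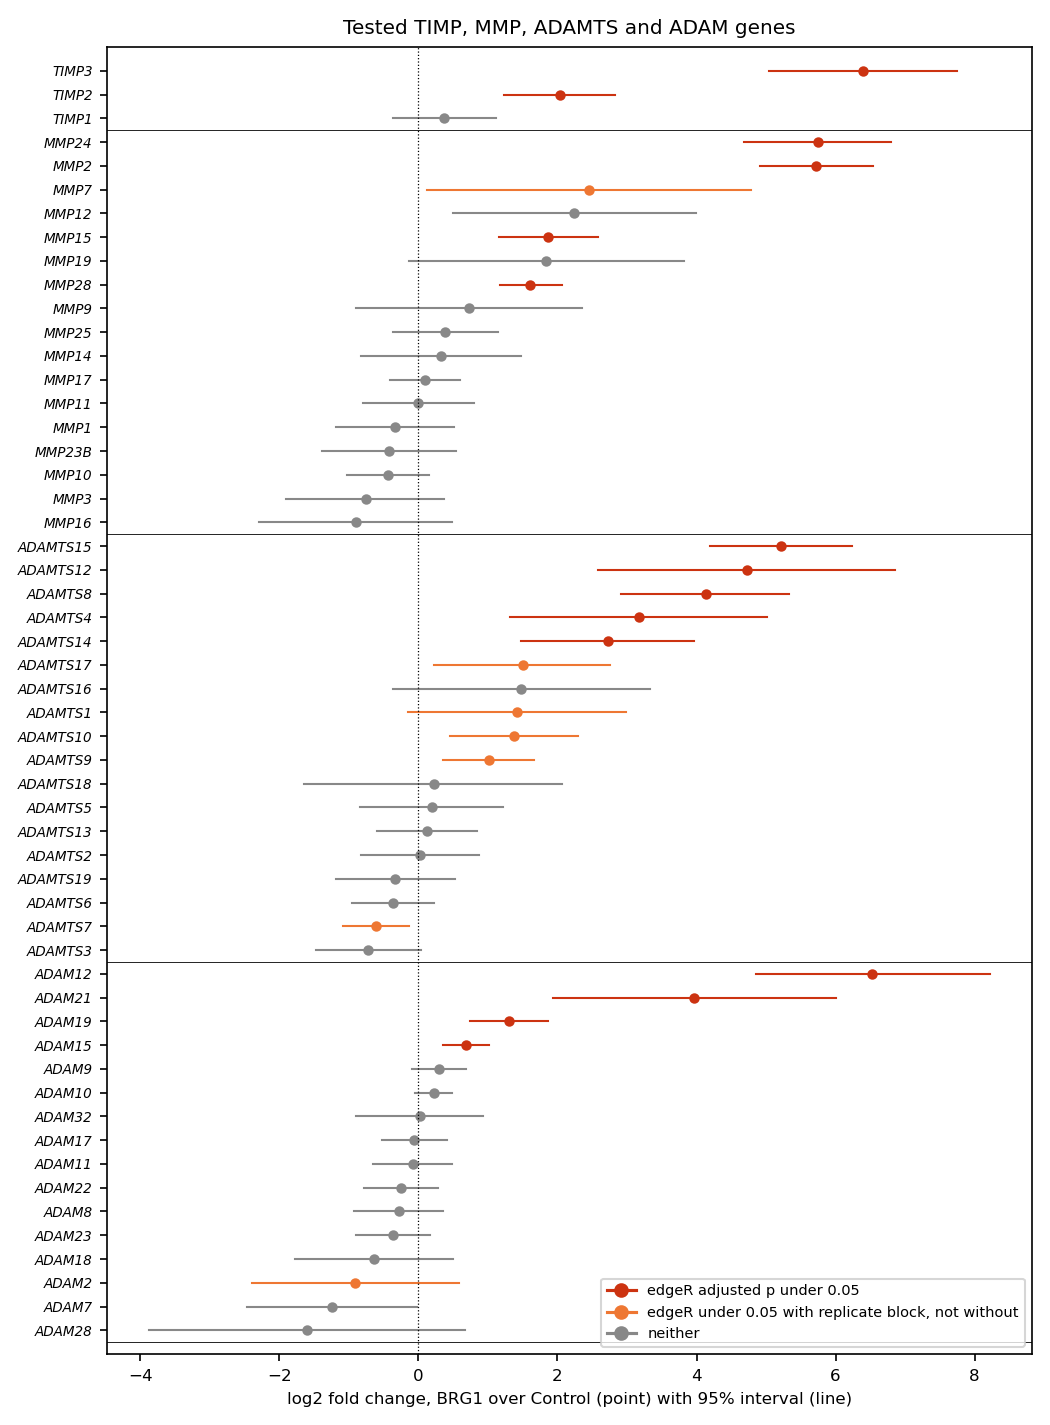
Log2 fold change of BRG1 over Control (point) with its 95% interval (line) for the 54 genes tested, grouped as TIMP, MMP, ADAMTS and ADAM genes from top to bottom. Red marks the 15 genes called by edgeR, all above 0, and orange the 7 that edgeR called with the replicate block and not without it, of which 2 lie below 0. The points are fitted values, and for ADAM12, ADAM21 and ADAMTS4, with Control at or under 3 counts, they are no bound.

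Of the 19 ADAMTS genes, 5 were called higher and 0 lower without the block (8 and 1 by an unadjusted p below 0.05; 7 and 0 in DESeq2), and 9 higher and 1 lower with it. Without any 1 of the 3 Control samples, 3 were called higher. Of the 19 genes, 18 were tested. The shares of all genes tested were 9.62% higher and 1.02% lower without the block, and 13.7% and 5.84% with it. The hyalectanases, which cut aggrecan, versican and related proteoglycans, supplied 3 of the 5 ADAMTS genes called without the block. ADAMTS15 was at 1.26, 1.18 and 0.837 CPM in Control and at 51.2, 50.7 and 19.0 CPM in BRG1 samples. BRG1 samples 1 and 2 were nearly equal and BRG1 sample 3 lower, yet far above Control (log2 fold change 5.22, SE 0.44, adjusted p = 2.8e-04). ADAMTS8 was at 0.0537, 0.180 and 0.0985 CPM in Control and at 2.76, 1.49 and 1.64 CPM in BRG1 samples. The groups did not overlap (log2 fold change 4.13, SE 0.52, adjusted p = 0.00174). ADAMTS8 (130404923 to 130428609, minus strand) and ADAMTS15 (130448645 to 130476645, plus strand) are neighbours on chromosome 11, with 20036 bases and no coding gene between them.

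ADAMTS4, also called aggrecanase-1, was at or under 3 counts in every Control library and at 0.293, 0.252 and 0.328 CPM in BRG1 samples. Its BRG1 mean was 4.21-fold the level of 3 counts per Control library (adjusted p = 0.0429). Between BRG1 sample 2 and Control sample 2, which held 3 counts, the fold was 3.26. The call was lost when any of 5 of the 6 samples was left out, Control sample 2 being the exception. ADAMTS5, the other main aggrecanase, was at 0.349, 0.206 and 0.246 CPM in Control and at 0.308, 0.359 and 0.229 CPM in BRG1 samples, with overlapping groups. ADAMTS1 was at 13.2, 8.88 and 5.06 CPM in Control and at 48.2, 17.4 and 6.23 CPM in BRG1 samples. Each BRG1 sample was above its Control of the same number, but BRG1 sample 3 was below Control samples 1 and 2 (adjusted p = 0.29, or 0.0296 with the block). ADAMTS9, a further hyalectanase, was at 3.17, 1.98 and 3.81 CPM in Control and at 6.57, 5.99 and 5.57 CPM in BRG1 samples, without overlap (adjusted p = 0.0656, or 0.0211 with the block and 0.0053 in DESeq2 without it).

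ADAMTS10, a protease of the fibrillin microfibrils, was at 1.64, 1.16 and 2.99 CPM in Control and at 6.69, 4.06 and 4.42 CPM in BRG1 samples, all higher (adjusted p = 0.0727, or 0.0183 with the block and 0.00731 in DESeq2 without it). ADAMTS17 was at 0.564, 0.232 and 0.263 CPM in Control and at 1.54, 0.827 and 0.557 CPM in BRG1 samples, with BRG1 sample 3 just below Control sample 1 (adjusted p = 0.154, or 0.0379 with the block, but 0.0886 in DESeq2 with the block).

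ADAMTS12, a protease of cartilage oligomeric matrix protein (COMP), lies on chromosome 5 from 33523535 to 33892019. It was at 0.806, 0.0772 and 0.181 CPM in Control and at 16.3, 8.20 and 2.62 CPM in BRG1 samples. Both groups were spread widely but did not overlap (log2 fold change 4.72, SE 0.92, adjusted p = 0.0135), and the call was lost without Control sample 2 or Control sample 3. ADAMTS7, the other COMP protease, was at 24.9, 16.9 and 28.1 CPM in Control and at 16.1, 14.2 and 15.5 CPM in BRG1 samples. All BRG1 samples were lower, with an adjusted p of 0.121 without the block and 0.0264 with it (log2 fold change -0.61).

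ADAMTS14, a procollagen N-proteinase, was at 0.349, 0.463 and 0.476 CPM in Control and at 4.96, 2.28 and 1.28 CPM in BRG1 samples. The groups did not overlap (log2 fold change 2.72, SE 0.53, adjusted p = 0.014), but the call was lost without any 1 of the Control samples. The other procollagen N-proteinases, ADAMTS2 and ADAMTS3, were not called. ADAMTS13 cuts von Willebrand factor. It was at 4.05, 5.02 and 7.19 CPM in Control and at 5.49, 4.37 and 7.93 CPM in BRG1 samples, with overlapping groups and a log2 fold change of 0.12 (95% interval -0.60 to 0.84). Its substrate gene VWF rose from 0.977 ± 0.690 to 75.6 ± 5.13 CPM (SD, n = 3 each).

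**Figure D3:**
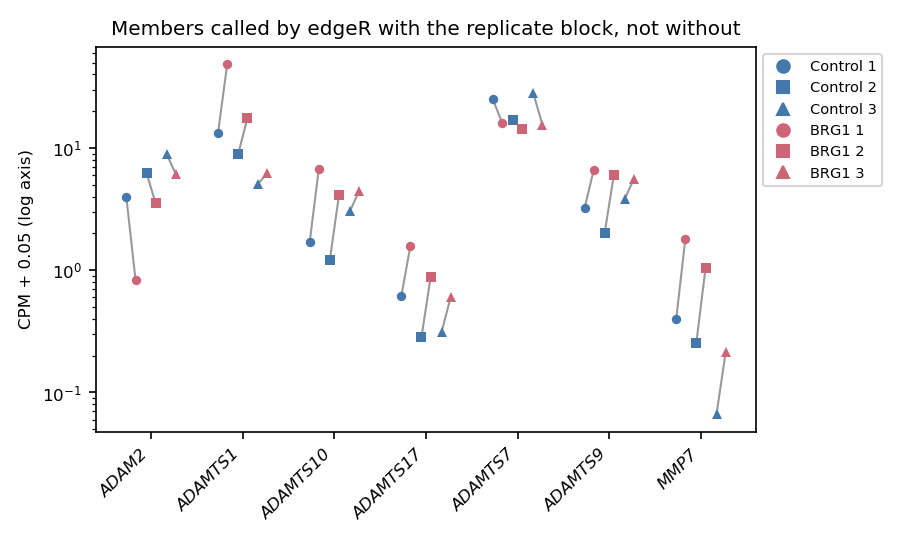
Level of the 7 genes that edgeR called with the replicate block and not without it, in CPM plus 0.05 on a log axis, with a line joining the Control (blue) and BRG1 (red) sample of the same number. The 3 lines of each gene run in the same direction, upward for ADAMTS1, ADAMTS9, ADAMTS10, ADAMTS17 and MMP7 and downward for ADAM2 and ADAMTS7. The genes were selected by that fit on the same data, so the shared direction is no separate support.

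Of the 20 ADAM genes, 4 were called higher and 0 lower (4 and 1 by an unadjusted p below 0.05; 4 and 0 in DESeq2), and with the block 4 higher and 1 lower. Without Control sample 2 the count called higher was 1, and without BRG1 sample 2 or Control sample 1 it was 2. Of the 20 genes, 16 were tested. The shares of all genes tested were 9.62% higher and 1.02% lower, and 13.7% and 5.84% with the block. ADAM12, which occurs in a membrane-bound and a secreted form, lies on chromosome 10 from 126012381 to 126388477. It held 0, 0 and 1 count in the Control libraries and was at 1.09, 0.809 and 0.787 CPM in BRG1 samples (adjusted p = 0.00102). The BRG1 mean was 13.0-fold the level of 3 counts per Control library. ADAM21, a gene best known from the testis, held 0, 0 and 2 counts in Control and was at 0.339, 0.252 and 0.164 CPM in BRG1 samples. The BRG1 mean of ADAM21 was 3.64-fold the level of 3 counts per Control library (adjusted p = 0.0243). Its call was lost without BRG1 sample 2 or Control sample 1 or 2, while without BRG1 sample 1 the gene averaged too few counts to be tested.

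ADAM19, also called meltrin beta, was at 10.5, 11.1 and 16.9 CPM in Control and at 39.1, 29.8 and 25.8 CPM in BRG1 samples. The groups did not overlap (log2 fold change 1.30, SE 0.24, adjusted p = 0.0109), but the call was lost without Control sample 1 or Control sample 2. ADAM15, an ADAM with an integrin-binding motif, was at 118, 155.0 and 166 CPM in Control and at 231, 235 and 240.5 CPM in BRG1 samples. The BRG1 samples were close together and above Control (log2 fold change 0.69, SE 0.14, adjusted p = 0.0171), and the call was lost without BRG1 sample 2 or Control sample 2.

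The main sheddases, ADAM10 and ADAM17, were not called. ADAM10 was at 80.7, 74.9 and 77.4 CPM in Control and at 101, 88.2 and 81.4 CPM in BRG1 samples. These groups did not overlap, and the 95% interval of the log2 fold change was -0.05 to 0.48. ADAM17 was at 81.5, 78.3 and 51.6 CPM in Control and at 68.6, 78.7 and 55.4 CPM in BRG1 samples, with overlapping groups and an interval of -0.53 to 0.41. ADAM2, a sperm surface protein, was at 3.89, 6.18 and 8.90 CPM in Control and at 0.786, 3.47 and 6.03 CPM in BRG1 samples. Each BRG1 sample was below its Control of the same number, and the adjusted p was 0.507 without the block and 0.0473 with it.

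Over the 39 tested genes that were not called, log2 fold changes ran from -1.60 (ADAM28) to 2.45 (MMP7). For 13 of them the 95% interval stayed within 1 of 0 on the log2 scale, and 8 of these 13 were ADAM genes. For the other genes not called, a change of 2-fold or more in some direction lay within the interval.

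Levels were then summed over each family per kilobase of exon. The summed TIMP level was 5.05, 3.52 and 3.82 CPM per kb in Control and 207.5, 113 and 57.7 CPM per kb in BRG1 samples. TIMP3 made up 39.8%, 37.3% and 23.1% of it in Control and 93.2%, 92.1% and 89.8% in BRG1 samples. The summed MMP level was 19.2, 16.2 and 16.8 CPM per kb in Control and 126, 83.9 and 57.4 CPM per kb in BRG1 samples. Both sums were higher in every BRG1 sample than in every Control sample. MMP28 was the largest part of the MMP sum in each Control sample, and MMP24 in each BRG1 sample, with 54.9%, 48.9% and 37.1%. For the ADAM genes the sum was 51.1 ± 4.76 CPM per kb without and 65.9 ± 0.1 CPM per kb with BRG1 (SD, n = 3 each), and the summed ADAMTS level was 19.6 ± 1.02 and 27.0 ± 4.14 CPM per kb (SD, n = 3 each).

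**Figure D4:**
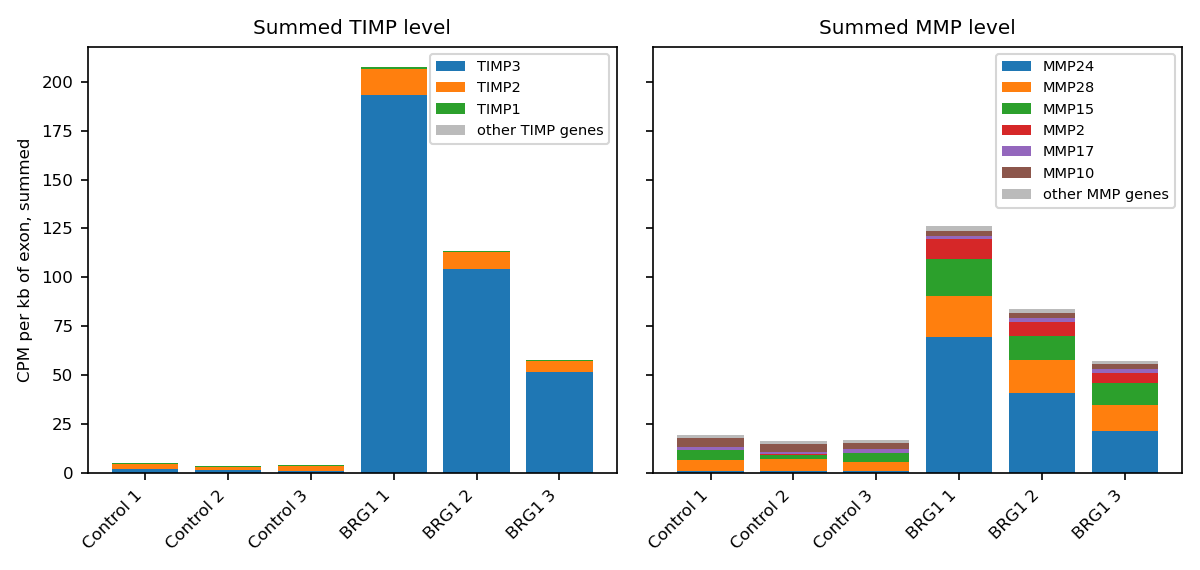
Summed level of the TIMP genes (left) and the MMP genes (right) in each sample, in CPM per kilobase of exon, stacked by gene and starting at 0. TIMP3 fills most of the TIMP bar and MMP24 is the largest part of the MMP bar in each BRG1 sample.

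The ratio of the MMP sum to the TIMP sum was 3.81, 4.60 and 4.41 in Control and 0.608, 0.739 and 0.994 in BRG1 samples. Means were 4.27 ± 0.412 and 0.78 ± 0.196 (SD, n = 3 each), without overlap, and no test was run on this ratio. Without TIMP3 in the TIMP sum, an alternative chosen after seeing the data, the direction turned, and the means were 6.47 ± 0.812 for Control and 9.33 ± 0.413 for BRG1 (SD, n = 3 each). The ratio describes RNA levels and not enzyme or inhibitor activity.

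A list of 57 partners, activators, other inhibitors, relatives and substrates of these proteases was read beside them. Of these, 16 were called higher and 2 lower (20 and 2 in DESeq2), and 21 and 2 with the block. Among all genes tested the shares were 9.62% and 1.02%, and 13.7% and 5.84% with the block. The inhibitors alpha-2-macroglobulin (A2M) and PZP, which trap proteases in the extracellular fluid, were the 2 that fell. A2M was at 1024.5, 863 and 539 CPM in Control and at 417, 442 and 377 CPM in BRG1 samples (log2 fold change -0.97, SE 0.22, adjusted p = 0.0258), and its call was lost without BRG1 sample 1 or 2 or Control sample 1 or 2. PZP was at 37.1, 34.5 and 21.4 CPM in Control and at 10.9, 13.2 and 13.8 CPM in BRG1 samples (log2 fold change -1.29, SE 0.23, adjusted p = 0.00871). In both genes every BRG1 sample was below every Control sample. SPOCK1, a matrix proteoglycan of the testican group, rose (log2 fold change 5.66, SE 0.68), and RECK, a membrane-anchored MMP inhibitor, was not called by edgeR without the block (adjusted p = 0.0679) but was with it (0.0177) and by DESeq2 (0.00911).

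**Figure D5:**
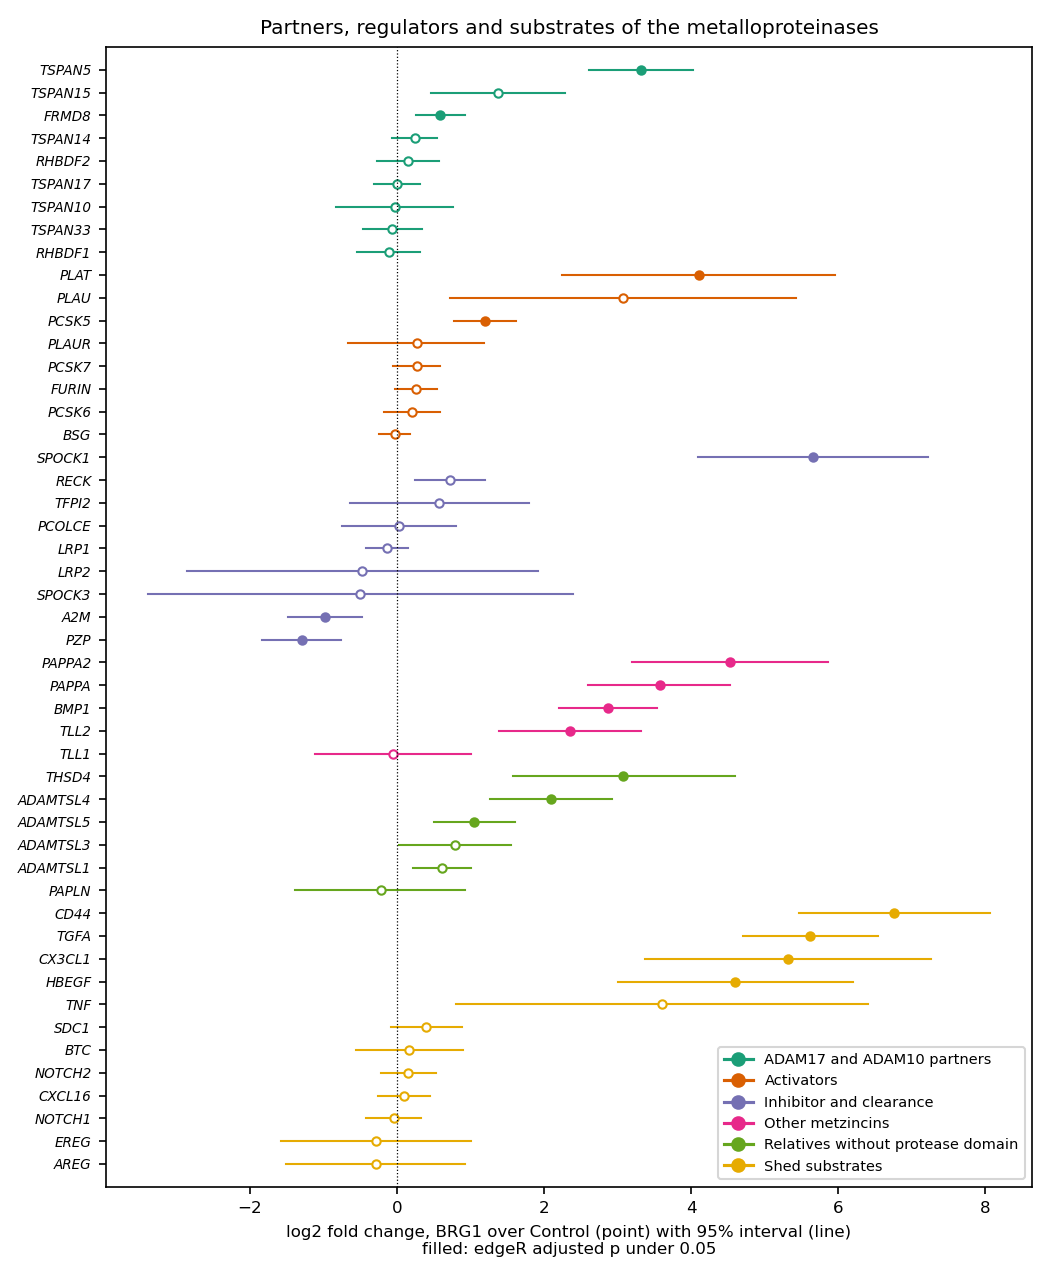
Log2 fold change of BRG1 over Control (point) with its 95% interval (line) for the tested genes of the list of partners, regulators and substrates, coloured by role. CX3CL1 and PAPPA2, with Control at or under 3 counts, are fitted values and no bound. Filled points passed the edgeR test, with 16 above 0 and 2 below 0 (A2M and PZP).

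The counts by role given next stand beside the same shares of all genes tested, 9.62% called higher and 1.02% lower. Among activators, PLAT, the tissue plasminogen activator, and PCSK5, a proprotein convertase, rose by log2 fold changes of 4.10 (SE 0.80) and 1.20 (SE 0.18). Of the 9 partners that guide ADAM10 and ADAM17 to the cell surface, TSPAN5 (3.32, SE 0.30) and FRMD8 (0.59, SE 0.14) rose. Among 13 shed substrates, 4 rose: the adhesion receptor CD44 (log2 fold change 6.76, SE 0.56), the growth factors TGFA (5.62, SE 0.40) and HBEGF (4.60, SE 0.69), and the chemokine CX3CL1. The BRG1 mean of CX3CL1 was 23.4-fold the level of 3 counts per Control library. Of 8 other metalloproteinases of the same superfamily, 4 rose, namely the procollagen C-proteinase BMP1 (2.87, SE 0.29), TLL2 (2.35, SE 0.42), PAPPA (3.57, SE 0.42) and PAPPA2 (BRG1 mean 12.9-fold the level of 3 counts per Control library). PAPPA and PAPPA2 cut proteins that bind insulin-like growth factors. Of 8 relatives of these families on the list, ADAMTSL4 (2.09, SE 0.36), ADAMTSL5 (1.05, SE 0.24) and THSD4 (3.08, SE 0.65) rose. On leaving out each of the 6 samples in turn, the calls of FRMD8 and ADAMTSL5 were lost in 5 cases each (all but BRG1 sample 3), that of THSD4 in 4 (all but BRG1 sample 3 and Control sample 3), that of PLAT in 3 (each Control sample) and that of TLL2 in 1 (Control sample 2).

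The summed level of 3 endothelial markers was 0.564 to 1.99 CPM in Control and 72.5 to 83.6 CPM in BRG1 samples, of which VWF alone made up 69.8 to 79.4 CPM, while PECAM1 was not called (adjusted p = 0.757). That of 4 epithelial markers was 0.657 to 2.37 CPM and 10.9 to 34.9 CPM. Summed fibroblast markers were at 26.4 to 29.6 CPM in Control and 23.3 to 29.9 CPM in BRG1 samples, summed immune markers at 7.63 to 14.7 and 8.05 to 16.7 CPM, and summed granulosa markers at 6.47 to 10.3 and 13.9 to 19.7 CPM. Whether cells of another type had a part in the changes of the proteases and inhibitors was not tested.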

How the data were processed

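RNA-seq of 3 Control and 3 BRG1 samples was analysed from 1 table. Per the study's methods and the submitters' processing notes, reads were checked with FastQC 0.11.5, aligned with STAR 2.5.3a and quantified with Salmon 0.8.2 against GENCODE on hg38. The authors deposited estimated counts per gene symbol, made with tximport from TPM scaled by transcript length and library size. These expected counts share out reads that fit several genes by a model, and the unstranded libraries do not separate antisense transcripts. Tool versions used by the authors included DESeq2 1.22.2.

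Counts were rounded to whole numbers (29699759 to 63613736 per sample) and genes with a mean of at least 5 were tested with the quasi-likelihood test of edgeR 4.0.16 (TMM, R 4.3.3), BRG1 against Control, two-sided, with Benjamini-Hochberg adjustment over 15061 genes and a threshold of 0.05. DESeq2 1.42.0 and limma-voom 3.58.1 were alternatives. The study used DESeq2. Both tools were run on simulated counts over 15061 genes, with 200 changed by a log2 fold change of 2. The false share of DESeq2 was 22.8% (25.7% with the block), with 83.0% of the changed genes recovered (79.5% with the block). For edgeR these shares were 6.71% and 76.5% (8.64% and 74.0% with the block). The simulation took its dispersions from the edgeR fit without the block and held no replicate effect. Its false shares therefore need not hold for the real data. Levels per kb used exonic lengths of GENCODE release 44 (GRCh38). Standard errors were derived from the fold change and F. A group with at most 3 counts in each library was taken as being at the floor, which covers counting error only, as do statements on depth.

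Sample numbers come from the titles. Over 15061 genes, deviations from the group means correlated at 0.328, 0.287 and 0.427 between samples with the same number, so the numbers were taken to pair the samples, and fits with the number as a block are given where they change a call. The labels call the samples biological replicates. Genes given with values in each sample were the TIMPs, all called genes, the genes that edgeR called with the block and not without it, and MMP1, MMP3, MMP7, MMP9, MMP10, MMP14, ADAM10, ADAM17 and ADAMTS1 whatever their values, while MMP12, ADAMTS5 and ADAMTS13 were chosen after their values were seen. The members and lists were chosen with earlier results of these data known.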

Additional observations from a re-analysis of the deposited data

How the results depend on the processing

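Among all genes, 1449 were called higher and 153 lower. The count higher was 927 at an adjusted p under 0.01 and 1025 to 1814 on leaving out each sample in turn. The count lower was 294 in DESeq2, 1035 in DESeq2 with the replicate block, 880 in edgeR with the block, 33 at an adjusted p under 0.01, 5 with an absolute log2 fold change of at least 1, and 39 (without BRG1 sample 2) to 257 (without BRG1 sample 3) on leaving out samples. For the 66 genes, the 15 higher became 9 at an adjusted p under 0.01 and 10 to 17 on leaving out samples. The 0 lower became 3 in DESeq2 with the block, 2 in edgeR with the block, and 0 to 1 on leaving out samples (1 without Control sample 2). Of ADAM genes, the 4 higher became 1 at an adjusted p under 0.01 and 1 to 4 on leaving out samples, and the 0 lower became 2 in DESeq2 with the block and 1 in edgeR with the block. Of ADAMTS genes, the 5 higher became 9 in edgeR with the block, 2 at an adjusted p under 0.01 and 3 to 5 on leaving out samples, and the 0 lower became 1 in either fit with the block and 0 to 1 on leaving out samples. Of the 57 partners and substrates, the 2 lower became 1 at an adjusted p under 0.01, 1 with an absolute log2 fold change of at least 1, and 1 to 2 on leaving out samples. The log2 fold change of ADAM17 ran from -0.24 to 0.10, being 0.10 without BRG1 sample 3, 0.06 without Control sample 1 and 0.02 without Control sample 2. The ratio of summed MMP to TIMP levels in Control was 2.77 from counts not divided by length and 6.47 without TIMP3, and in BRG1 samples it was 9.33 without TIMP3 and 0.426 without MMP24. The alternatives without TIMP3 and MMP24 were chosen after seeing the data. The cause of these shifts was not tested.

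In edgeR the block added the calls of ADAM2, ADAMTS1, ADAMTS7, ADAMTS9, ADAMTS10, ADAMTS17 and MMP7 and changed no other call among the 66 genes. DESeq2 with the block called ADAM23 lower (adjusted p = 0.0484), did not call ADAM21 (0.0588), ADAMTS4 (0.068) or ADAMTS17 (0.0886), and called the other 6 of the 7. Among the named genes, 345 of the recomputed values kept direction and side of the threshold, 20 lost the call and 19 gained it. For genes near 3 counts in Control, among them ADAMTS4 and ADAM21, the size of the fold is poorly known at this depth. Gene-level estimated counts do not separate isoforms.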
